A study of Mus musculus with 30 samples.

Results

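The FoxO transcription factors Foxo1 and Foxo3, the F-box and RING ubiquitin ligases Fbxo32 (atrogin-1), Trim63 (MuRF1), Fbxo30 and Fbxo31, and the growth and translation regulators Gadd45a, Cdkn1a and Eif4ebp1 were followed as the atrophy genes of mouse quadriceps. These 9 genes were chosen by name, with earlier results of these data known, from a table of 56748 genes. All 9 passed the filter on low counts that left 17518 genes for testing. Counts came from poly(A)-selected RNA of 30 mice, 1 library per mouse. Wildtype (WT) FVB/N mice (n = 5) were compared with mice of the DM1 genotype, HSA-LR20b transgenic mice, which were either nontreated (NT, n = 8) or treated. Of the treated HSA-LR20b mice 4 had received 5.3 mg/kg of pacDNA-L9, 3 had received 21.2 mg/kg of it and 3 had received 42.4 mg/kg. The others were given free L9 at 5.3 mg/kg (n = 3), the Brush polymer alone at 40 nmol (n = 2) or pacDNA-Scr at 5.3 mg/kg (n = 2). Mice were 8 weeks old, injections went into the tail vein, and muscle was taken 2 weeks after the last of them; the labels give the WT and NT mice as untreated. The HSA-LR transgene is a human skeletal actin gene with an expanded CTG repeat, and its expression is limited to skeletal muscle, so the mice model the muscle part of myotonic dystrophy type 1. L9 is a short antisense oligonucleotide of locked nucleic acids against the repeat RNA, pacDNA-L9 carries it on a bottlebrush polymer, and pacDNA-Scr carries a scrambled sequence. The human transgene RNA itself was not analysed here.

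In a growing or well-fed muscle, insulin and growth factor signals activate the kinase Akt, which keeps the FoxO factors phosphorylated and out of the nucleus. When this signal falls, as in fasting, disuse, denervation or glucocorticoid excess, FoxO factors enter the nucleus and raise the genes of ubiquitin ligases and of autophagy, and muscle protein is degraded. Fbxo32 and Trim63 are the ligases most used as markers of that state, and raised RNA of either is a marker and not a measurement of muscle loss.

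Because FoxO factors bind near the starts of some of these genes, the 250 bases before the start of the canonical transcript (GRCm39, GENCODE vM39) were read for all 9 genes and searched on both strands for the FoxO core letters GTAAACA. Of 21770 protein-coding genes 2.72% held these letters in that window, and of the 9 genes 1 did, Trim63, where the match began 156 bases before the start. The windows of Trim63 (chr4:134042143-134042392, plus strand), Fbxo32 (chr15:58078742-58078991, minus strand) and Foxo1 (chr3:52175507-52175756, plus strand) are shown as those of the 2 best known atrophy ligases and of a factor that regulates them, each in lower case from 5′ to 3′ on the strand of its gene, with the match in capitals.
Trim63: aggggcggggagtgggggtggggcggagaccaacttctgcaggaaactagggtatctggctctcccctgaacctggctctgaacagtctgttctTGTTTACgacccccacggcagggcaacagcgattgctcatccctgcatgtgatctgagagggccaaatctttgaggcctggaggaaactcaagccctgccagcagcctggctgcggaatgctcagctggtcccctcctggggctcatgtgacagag
Fbxo32: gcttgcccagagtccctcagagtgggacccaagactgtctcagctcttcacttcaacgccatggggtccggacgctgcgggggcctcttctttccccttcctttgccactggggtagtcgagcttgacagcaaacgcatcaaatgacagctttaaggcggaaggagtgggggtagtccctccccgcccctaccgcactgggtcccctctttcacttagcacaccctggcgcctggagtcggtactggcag
Foxo1: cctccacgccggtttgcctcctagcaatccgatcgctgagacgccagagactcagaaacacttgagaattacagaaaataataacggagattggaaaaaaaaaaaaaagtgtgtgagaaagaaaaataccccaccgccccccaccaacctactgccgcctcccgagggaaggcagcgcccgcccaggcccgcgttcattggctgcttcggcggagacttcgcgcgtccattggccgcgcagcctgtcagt
A window without the match says only that these letters are not in it. L9 is directed at CUG repeats, so the canonical transcripts were also searched for 3 CTG units in a row, CTGCTGCTG. None of the 9 transcripts held such a run, against 15.2% of the canonical transcripts of protein-coding genes. So few transcripts cannot be told apart from that share, and the longest run in each was 2 CTG units.

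The libraries held 13605309 to 26956558 counts (median 20141850.5), and the summed level of 7 skeletal muscle fibre markers lay between 94310 and 167000 CPM (counts scaled to the library total, with TMM factors) over all libraries. A second set of 6 libraries, for which the labels restart the library numbering and name no strain, stood apart from the other 24 on the first principal component (59.3% of the variance), and 5 of them listed 0 counts for all 37 mitochondrial genes. The remaining library of this set, free L9 mouse C, listed 1628217 mitochondrial counts. It lay at 87.9 on that component, where the 5 lay at 117 to 121.7. The second set, with free L9 mouse C in it, was a term in the model. For this term 24.9% of all genes tested passed and 0 of the 9 genes (edgeR adjusted p from 0.10 for Gadd45a to 0.95 for Foxo1), of which Gadd45a, 0.57 higher in the second set, and Fbxo31, -0.44, had an unadjusted p under 0.05. In NT, Fbxo31 was at 126 to 130 CPM in the second set and 186 to 296 CPM in the first. All 3 mice at 42.4 mg/kg were in the first set, were female by their Xist and Y-linked counts, and belonged to the 9 libraries of the first set whose names in the table hold only a short running number. Levels are those of whole muscle, in which fewer cells of a type and less RNA per cell cannot be told apart.

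At the highest dose of pacDNA-L9, 42.4 mg/kg, against NT 7 of the 9 genes passed the threshold (edgeR quasi-likelihood test, Benjamini-Hochberg adjusted p under 0.05 over all 17518 genes), all 7 of them higher, where 3.14% of all genes passed and 2.28% passed as higher. The 7 were both FoxO factors, the ligases Fbxo32, Trim63 and Fbxo30, Gadd45a and Cdkn1a. Fbxo31 and Eif4ebp1 did not pass. The median log2 fold change of the 9 genes was 1.63, and that of all genes was -0.02. In 6 of the 9 genes each treated mouse lay above each NT mouse (3.95% of all genes), and in the same 6 each also lay above all 27 other mice of the series (1.15% of all genes). Mouse B at this dose was the highest in every one of the 9 genes, and without it 3 of the 9 still passed, namely Trim63, Foxo1 and Gadd45a, beside 0.721% of all genes. With the running-number names as a term, which NT 6 alone shares among the NT mice, 5 of the 9 passed (all but Fbxo32 and Fbxo30 of the 7), and the genes called fell from 550 to 240.

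**Figure D1:**
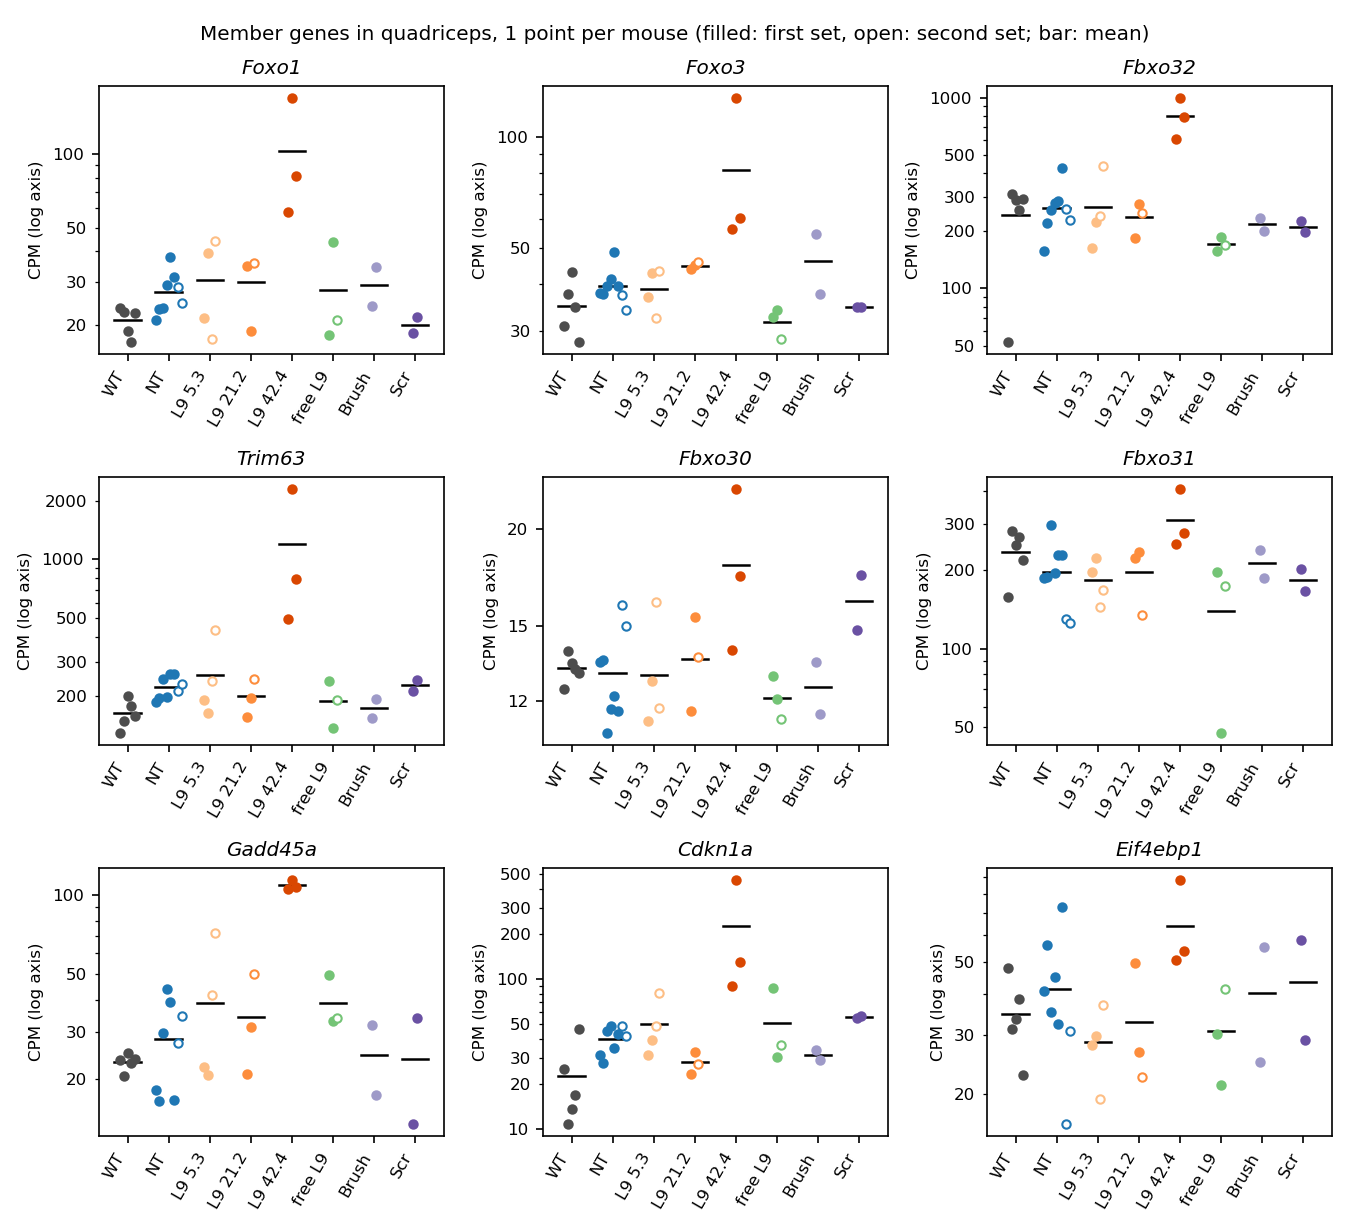
CPM of the 9 genes (log axis) in each mouse of the 8 groups, with filled points for the first set, open points for the second set and a bar at the group mean; L9 stands for pacDNA-L9 with its dose in mg/kg and Scr for pacDNA-Scr. In Foxo1, Foxo3, Fbxo32, Trim63, Gadd45a and Cdkn1a the 3 mice at 42.4 mg/kg sit above all 27 others.

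Foxo1, which switches on atrophy and fuel-saving genes when insulin signalling is low, is on chromosome 3 (52175757 to 52260642, plus strand). Its level in the WT mice 1 to 4 and the unnumbered WT mouse was 23.4, 22.6, 18.9, 17.0 and 22.2 CPM, and in the 8 NT mice it ran from 21.0 to 37.7 with a median of 26.4 CPM. At 42.4 mg/kg the mice A, B and C had 57.8, 169.5 and 81.5 CPM, so that the lowest of them was above the highest NT mouse. The level at 5.3 mg/kg was 21.3, 39.3, 17.5 and 44.1 CPM in mice A to D, and at 21.2 mg/kg it was 34.9, 18.9 and 35.8 CPM in mice A to C. These lower doses overlapped the NT mice. Against NT the log2 fold change at 42.4 mg/kg was 1.90 ± 0.29 (SE; a 3.74-fold higher level, edgeR adjusted p = 1.6e-04).

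Foxo3, the FoxO factor that alone can drive Fbxo32 and the autophagy genes in fibres, is on chromosome 10 (42057837 to 42154007, minus strand). It stood at 34.9 ± 5.90 CPM in WT (SD, n = 5) and 39.6 ± 4.39 CPM in NT (SD, n = 8), with a highest NT mouse of 49.1 CPM. The mice A, B and C at 42.4 mg/kg had 56.6, 127 and 60.4 CPM. Mice A and C thus lay just above the other mice of the series, of which Brush A was the highest at 54.7 CPM, and mouse B far above. The log2 fold change against NT was 1.01 ± 0.18 (SE, edgeR adjusted p = 7.9e-04), and it was 0.53 with an edgeR adjusted p of 0.12 without mouse B.

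Fbxo32, the F-box part of an SCF ubiquitin ligase that marks muscle proteins such as MyoD and eIF3f for degradation, is on chromosome 15 (58039275 to 58078741, minus strand). Its level was 609, 992.5 and 788 CPM in mice A, B and C at 42.4 mg/kg, against 157 to 429 CPM in NT with a median of 259 CPM. In WT it was 313.8, 290.9, 258 and 292.8 CPM in mice 2, 3, 4 and the unnumbered mouse and only 52.6 CPM in mouse 1. The treated mice did not overlap either control group. The log2 fold change against NT was 1.63 ± 0.32 (SE; 3.09-fold, edgeR adjusted p = 0.0030). The edgeR adjusted p was 0.073 without mouse B and 0.087 with the running-number names as a term, while the log2 fold change ran from 1.37 to 1.78 over the 20 alternatives. Of the exon bases of Fbxo32 4.75% lie under Gm15943 on the opposite strand. Gm15943 was at 8.3 to 16.65 CPM at 42.4 mg/kg, with a median of 1.913 CPM over the first set and at most 2.81 CPM in WT. Its part in the Fbxo32 value was not tested.

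Trim63, a RING ligase of the sarcomere that acts on thick filament proteins, is on chromosome 4 (134042393 to 134056948, plus strand), and its upstream window is the one with the FoxO letters above. The mice A, B and C at 42.4 mg/kg had 498, 2292 and 795 CPM. The NT mice had 185 to 260.4 CPM with a median of 221 CPM, and the WT mice 130 to 200.5 CPM. Every mouse at this dose was thus above every control, and mouse B was 10.3 times the NT mean. The log2 fold change against NT was 2.499 ± 0.28 (SE; 5.65-fold, edgeR adjusted p = 2.3e-06), the highest-ranked of the 9 genes. It was 1.61 without mouse B (edgeR adjusted p = 7.4e-04).

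Fbxo30 (MUSA1), an F-box ligase known from denervated muscle, and Fbxo31, an F-box protein better known for cyclin D1 turnover, are on chromosomes 10 and 8. Fbxo30 was the weakest of the 7 calls. It had 14.0, 22.5 and 17.4 CPM in mice A, B and C at 42.4 mg/kg and 10.9 to 15.9 CPM in NT, so that mouse A lay among the NT mice. The NT mice of the first set, to which the treated mice belong, had 10.9 to 13.5 CPM, just below mouse A, and those of the second had 15.0 and 15.9 CPM. Its log2 fold change was 0.51 ± 0.14 (SE, edgeR adjusted p = 0.041), and the call was lost in 13 of 20 alternatives. Fbxo31 had 250.4, 406 and 275.5 CPM at 42.4 mg/kg and 126 to 296 CPM in NT. Its log2 fold change of 0.58 ± 0.27 (SE) had an edgeR adjusted p of 0.35.

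Gadd45a, a stress-induced nuclear protein that in muscle can start an atrophy programme, is on chromosome 6 (67012070 to 67014441, minus strand). Its level at 42.4 mg/kg was 105, 114 and 108 CPM in mice A, B and C, and in NT it was 16.4 to 43.9 CPM with a median of 28.6 CPM. Its 3 treated mice lay close together (SD 4.59 CPM). The log2 fold change was 2.08 ± 0.30 (SE; 4.24-fold, edgeR adjusted p = 1.1e-04), and it ran from 1.92 to 2.26 over the 20 alternatives. Of its exon bases 55.8% lie under E230016M11Rik on the opposite strand, and the strand setting of the counting was not given in the sources used here. The counts given to E230016M11Rik were 0.1003 to 1.06 CPM in the first set, to which all mice at 42.4 mg/kg belong, and 16.5 to 38.0 CPM in the second.

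Cdkn1a, the cell-cycle inhibitor p21, is on chromosome 17 (29309936 to 29319701, plus strand). The mice A, B and C at 42.4 mg/kg had 89.6, 457 and 130.4 CPM, against 27.7 to 48.5 CPM in NT with a median of 42.6 CPM. The WT mice 1 to 4 and the unnumbered mouse had 25.1, 10.9, 13.7, 17.0 and 46.7 CPM. Treated and control mice did not overlap, but free L9 mouse A, at 87.3 CPM, was close to mouse A of the highest dose. The log2 fold change against NT was 2.55 ± 0.40 (SE; 5.84-fold, edgeR adjusted p = 2.9e-04), and without mouse B it was 1.51 with an edgeR adjusted p of 0.058. Of its exon bases 12.5% lie under genes of the opposite strand, among them Dino, at 0 to 2.07 CPM in the first set.

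Eif4ebp1 encodes 4E-BP1, which holds back cap-dependent translation until mTOR phosphorylates it, and its gene is on chromosome 8 (27750350 to 27805206, plus strand). It had 50.7, 87.8 and 53.6 CPM in mice A, B and C at 42.4 mg/kg and 16.3 to 72.9 CPM in NT. The groups overlapped, and the log2 fold change of 0.57 ± 0.33 (SE) had an edgeR adjusted p of 0.50. With sex as a term it was 0.98 with an edgeR adjusted p of 0.0054.

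The 3 mice at the highest dose differed from each other in one direction across the list. All 9 genes were in the order B above C above A, an order shown by 21.5% of all genes tested and by 59.4% of the 399 genes that passed as higher at this dose. Relative to the NT mean, mouse B was 6.20 times in Foxo1, 10.3 times in Trim63 and 11.4 times in Cdkn1a, and mouse A was 2.12, 2.24 and 2.23 times in the same genes. In Gadd45a the 3 mice were 3.72 to 4.04 times the NT mean. The letters name the mice and stand for no dose or time. The SE values above come from a spread shared by all 8 groups and not from these 3 mice alone.

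**Figure D2:**
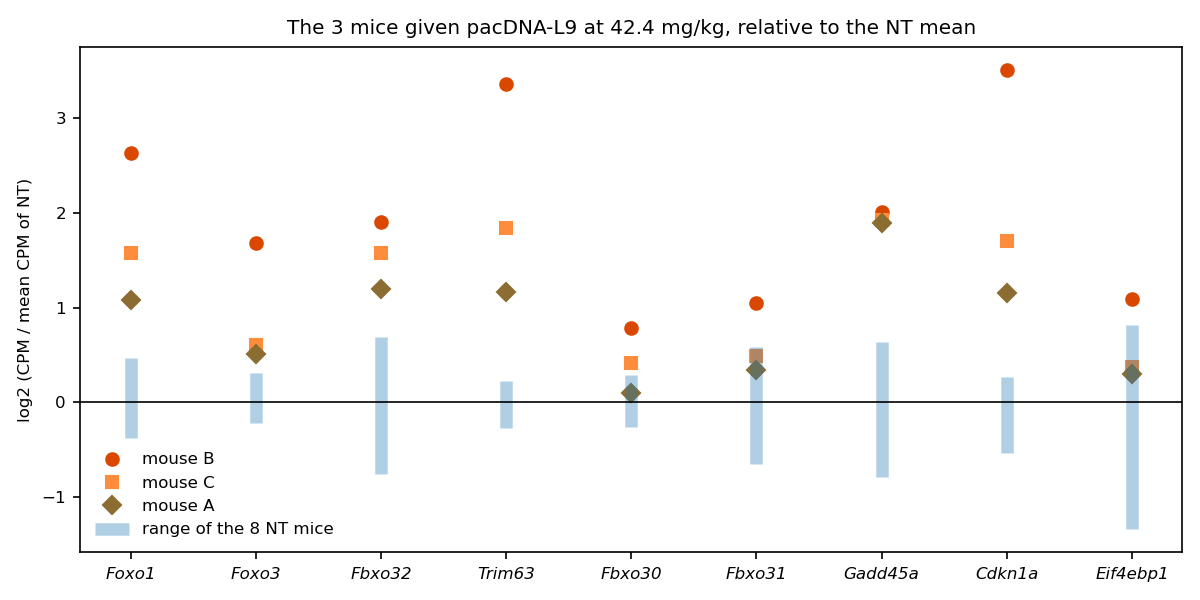
Log2 ratio of CPM to the NT mean for each of the 3 mice at 42.4 mg/kg (symbols), beside the range of the 8 NT mice (bars), for the 9 genes. Mouse B is the highest symbol in all 9 genes, and in Fbxo30, Fbxo31 and Eif4ebp1 at least mouse A lies within the range of the 8 NT mice, in Fbxo30 through the 2 NT mice of the second set.

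Measured per kilobase of canonical transcript, Trim63 was the most abundant of the 9 transcripts in NT (154 CPM per kilobase on average), followed by Fbxo31 at 44.4 and Fbxo32 at 35.8. The NT ranges of Fbxo31 (28.3 to 66.9) and Fbxo32 (21.2 to 58.0) overlapped, and Fbxo32 was the higher in NT 6, NT 7 and NT 8. Gadd45a, Cdkn1a and Eif4ebp1 were at 22.9, 20.9 and 20.6 CPM per kilobase, and their NT ranges overlapped each other. Foxo3 at 5.78, Foxo1 at 3.15 and Fbxo30 at 2.43 CPM per kilobase were the lowest. At 42.4 mg/kg Trim63 again led, at 345, 1586 and 550.3 CPM per kilobase in mice A, B and C. Below it Fbxo32 had 82.4, 134 and 107, Gadd45a 85.3, 92.5 and 87.3, and Cdkn1a 46.6, 237 and 67.8 CPM per kilobase. These ranges overlapped, and by this length Cdkn1a lay above the others in mouse B only. The order can change with the length used, as counts are per gene. The canonical transcript of Cdkn1a has 1923 bases where all its exons hold 6045, and that of Eif4ebp1 has 2004 where they hold 9231.

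Against WT the highest dose differed in much the same genes. At 42.4 mg/kg 6 of the 9 genes passed, all higher (9.98% of all genes passed, 6.13% as higher): Foxo1, Foxo3, Fbxo32, Trim63, Gadd45a and Cdkn1a. The log2 fold changes included those of Cdkn1a, 3.31 ± 0.45 (SE, edgeR adjusted p = 1.8e-05), and Trim63, 2.87 ± 0.31 (SE, edgeR adjusted p = 4.0e-07), and Gadd45a, 2.23 ± 0.34 (SE, edgeR adjusted p = 5.8e-05). Without mouse B they were 2.27, 1.99 and 2.198, and all genes called fell from 1749 to 912. With the running-number names as a term 1049 genes were called. In 8 of the 9 genes, all but Fbxo31, each treated mouse lay above each WT mouse, as did 11.3% of all genes. All 6 calls held in each of 17 alternatives. This comparison and that with NT share the treated mice. Among the cell type markers reported here, 4 of 6 of macrophages and 2 of 7 of fibres were higher in it, 1 of 5 of fibroblasts was higher and 1 lower, and 1 of 4 of endothelium was lower, and their part in the result was not tested.

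The highest dose was also set against the lower ones, in comparisons that were added after the values had been seen. The mice at 42.4 mg/kg had 8 injections and those at 21.2 mg/kg had 4, each course lasting 2 weeks, so the dose and the number of injections cannot be told apart. Against 21.2 mg/kg 5 of the 9 genes were higher at 42.4 mg/kg (Fbxo32, Trim63, Foxo1, Gadd45a and Cdkn1a; 0.639% of all genes passed), and against 5.3 mg/kg 6 of the 9 were, Foxo3 in addition (1.19% of all genes passed). Trim63 had the smallest adjusted p in both, with a log2 fold change of 2.71 ± 0.38 (SE, edgeR adjusted p = 4.2e-04) against 21.2 mg/kg and 2.43 ± 0.36 (SE, edgeR adjusted p = 5.0e-04) against 5.3 mg/kg. Without mouse B 1 gene was left in each, Trim63 at 1.82 and 1.55. All genes called then fell from 112 to 15 and from 209 to 25. Without 21.2 mg/kg A or 5.3 mg/kg A 1 of the 9 was left in the comparison with that dose, of 17 and 47 genes called. With the running-number names as a term 1 and 2 were left, of 13 and 68 genes called. No mouse at a lower dose in the first set has such a name, so the dose and the name are told apart only through the WT, NT, Brush, pacDNA-Scr and free L9 libraries that have it.

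At the lower doses and with the control agents none of the 9 genes passed. At 5.3 mg/kg pacDNA-L9 against NT edgeR called 0 of the 9 genes (0 at an unadjusted p under 0.05, 0 by DESeq2), and the log2 fold changes ran from -0.39 for Eif4ebp1 to 0.24 for Cdkn1a. In this comparison edgeR called 0% of all genes, with 277 at an unadjusted p under 0.05 and 7 called by DESeq2. At 21.2 mg/kg it was again 0 of 9 (0 at an unadjusted p under 0.05, 0 by DESeq2; 0.0685% of all genes), with values from -0.53 for Cdkn1a to 0.20 for Foxo3. The 12 genes called became 20, 2 and 4 without mice A, B and C at this dose, with 0 of the 9 genes each time. The 95% interval for Trim63 at 21.2 mg/kg ran from -0.82 to 0.40 and for Fbxo32 from -0.88 to 0.52, so that rises as large as those at 42.4 mg/kg lie outside them. For Cdkn1a at 5.3 mg/kg the interval ran from -0.57 to 1.05.

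**Figure D3:**
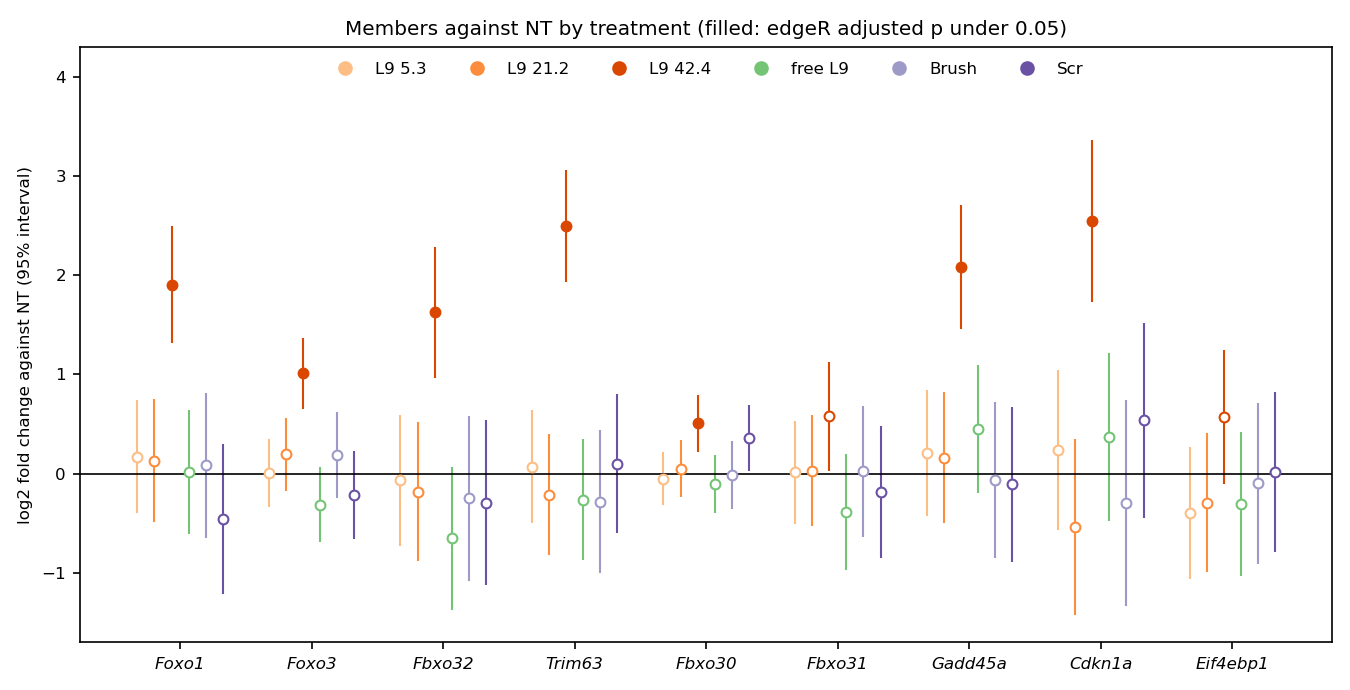
Log2 fold change of the 9 genes against NT with its 95% interval (lines) for each treatment (colours), from the edgeR model of all 30 libraries; filled points passed an adjusted p of 0.05. The 7 filled points are all at pacDNA-L9 42.4 mg/kg, and all other treatments have open points.

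Within the group at 5.3 mg/kg, mouse D of the second set was the highest in 7 of the 9 genes, all but Fbxo30 and Fbxo31. The share of all genes highest in mouse D is not given here, so the count is not particular to these genes. This mouse was the only male of its group and had its lowest TMM factor (0.869), and their part was not tested. Mouse D had 437 CPM of Fbxo32, 433 CPM of Trim63 and 71.4 CPM of Gadd45a, where mice A, B and C had 163 to 238, 163 to 238 and 20.7 to 41.5 CPM. A test of whether the difference from NT itself differed between the sets called 0 of the 9 genes and 0 of all genes (edgeR). The largest such difference was that of Gadd45a, 1.13 ± 0.52 (SE) on the log2 scale, with an edgeR adjusted p of 1.

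Free L9 at 5.3 mg/kg gave 0 of 9 against NT (0 at an unadjusted p under 0.05, 0 by DESeq2; 0.942% of all genes passed). That share rests on single libraries: the 165 genes called became 1360 without free L9 mouse A, 1147 without mouse C, 268 without mouse B, 110 without NT 2, 58 without NT 7 and 59 without NT 8, with 0 of the 9 genes each time. It also rests on the model: 22 genes were called without the set as a term, 354 in the first set only and 525 by DESeq2, again with 0 of the 9. The lowest value was that of Fbxo32, -0.65 ± 0.35 (SE, edgeR adjusted p = 0.42), with mice at 158, 185 and 169 CPM. Foxo3 was at 32.55, 34.01 and 28.53 CPM in these mice, each below the lowest NT mouse at 34.02 CPM, mouse B only just, with a log2 fold change of -0.31 and an edgeR adjusted p of 0.46. Of all 17518 genes 134 likewise had each free L9 mouse below each NT mouse. Fbxo31 was at 47.7 CPM in mouse B, a library in which 14348 genes were detected at equal depth, fewer than in any other.

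Brush gave 0 of 9 (0 at an unadjusted p under 0.05, 0 by DESeq2), in a comparison where edgeR called 0% of all genes (329 at an unadjusted p under 0.05, 5 by DESeq2). pacDNA-Scr gave 0 of 9 as well (1 at an unadjusted p under 0.05, 0 by DESeq2), where edgeR called 0% of all genes (270 at an unadjusted p under 0.05, 1 by DESeq2). The 1 was Fbxo30, at 14.8 and 17.5 CPM and a log2 fold change of 0.36 ± 0.16 (SE, edgeR adjusted p = 1). Cdkn1a was at 55.0 and 57.1 CPM in the pacDNA-Scr mice, above each NT mouse, with a log2 fold change of 0.54 (edgeR adjusted p = 1). Of all 17518 genes 233 likewise had each pacDNA-Scr mouse above each NT mouse. With 2 mice in each of these groups the 95% interval in Brush ran from -1.004 to 0.44 for Trim63 and from -0.36 to 0.33 for Fbxo30.

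At the matched dose of 5.3 mg/kg, pacDNA-L9 was also set against the other agents. Against free L9 0 of 9 genes passed (0 at an unadjusted p under 0.05, 0 by DESeq2; 0.719% of all genes passed), with Fbxo32 farthest from 0 at 0.59 and a 95% interval from -0.22 to 1.39. The 126 genes called became 651, 289 and 585 without free L9 mice A, B and C, and 59, 13 and 28 without pacDNA-L9 mice B, C and D, with 0 of the 9 each time. Without the set as a term 2 genes were called, and 409 by DESeq2, again with 0 of the 9. With the mice blocked by letter, which in both groups puts A and B in the first set and C in the second, 0 of all genes passed (0 of 9), and 0 also passed in the same 6 libraries without the block. Against pacDNA-Scr 0 of 9 passed (1 at an unadjusted p under 0.05, 0 by DESeq2), where 0% of all genes did (268 at an unadjusted p under 0.05, 1 by DESeq2). The 1 was Fbxo30, -0.41 with a 95% interval from -0.79 to -0.03 (edgeR adjusted p = 1).

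NT against WT asks whether the atrophy genes differ with the HSA-LR transgene, and it does not separate the repeat from the rest of the transgene. None of the 9 passed (0 of 9, 1 at an unadjusted p under 0.05, 0 by DESeq2), where 5.31% of all genes did. The 1 was Cdkn1a, which passed when only the mice WT 1 to 4 and NT 1 to 4 were compared (1.19, edgeR adjusted p = 0.033; 1.22 and 0.023 with the numbers as a replicate block). Over all 13 mice it was at 40.1 ± 7.89 CPM in NT (SD, n = 8) and 22.7 ± 14.5 CPM in WT (SD, n = 5), a log2 fold change of 0.77 ± 0.37 (SE, edgeR adjusted p = 0.30). The unnumbered WT mouse, at 46.7 CPM, lay among the highest NT mice, and without it the value was 1.21 (edgeR adjusted p = 0.055). The log2 fold changes of the other 8 genes lay between -0.17 for Fbxo31 and 0.40 for Foxo1, with Trim63 at 0.37. The sign of the Fbxo32 difference (0.09) depended on WT mouse 1: without that mouse the value was -0.16. WT mouse 1 was the only male WT mouse and had a fibroblast marker sum of 3261 CPM, where the other WT mice had 677.5 to 1205 CPM, and their part in the value was not tested.

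Among the other listed genes, those listed as FoxO targets held most of those that passed at 42.4 mg/kg against NT. The lists were chosen with earlier results of these data known, so their counts are a description and not an independent test. Of 21 other FoxO targets 8 were higher and 0 lower, where 3.14% of all genes passed and 2.28% as higher, with a median log2 fold change of 0.41 against -0.02 for all genes. The 4 largest were the metallothioneins Mt2 and Mt1, which bind zinc and copper, Ddit4, an inhibitor of mTOR, and Pdk4, which turns fibres from glucose to fat by blocking pyruvate dehydrogenase. Mt1 rose from 6.19 to 48.2 CPM in NT to 240.2 to 839 CPM (log2 fold change 4.57 ± 0.62, SE, edgeR adjusted p = 9.4e-05). Pdk4 rose from 88.5 to 923 CPM to 2868 to 4554 CPM (3.88 ± 0.74, SE, edgeR adjusted p = 0.0030). Ddit4 rose from 6.51 to 48.8 CPM to 90.7 to 698 CPM (4.47 ± 0.92, SE, edgeR adjusted p = 0.0060). Each of these ranges at 42.4 mg/kg lay wholly above that of NT, and Mt2, at 8.91 to 33.8 CPM against 0.0543 to 8.64 CPM, followed at a low level (4.84 ± 0.62, SE, edgeR adjusted p = 2.9e-05). Gabarapl1 and Ctsl of autophagy and lysosome, the sestrin Sesn1 and the factor Klf15 made up the 8, with log2 fold changes from 0.90 for Ctsl to 1.47 for Klf15. Without mouse B 4 of the 21 passed (Gabarapl1, Pdk4, Mt1 and Mt2). With the running-number names as a term 6 passed (Gabarapl1, Sesn1, Txnip, Klf15, Mt1 and Mt2), so that Pdk4, Ddit4 and Ctsl lost their calls.

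**Figure D4:**
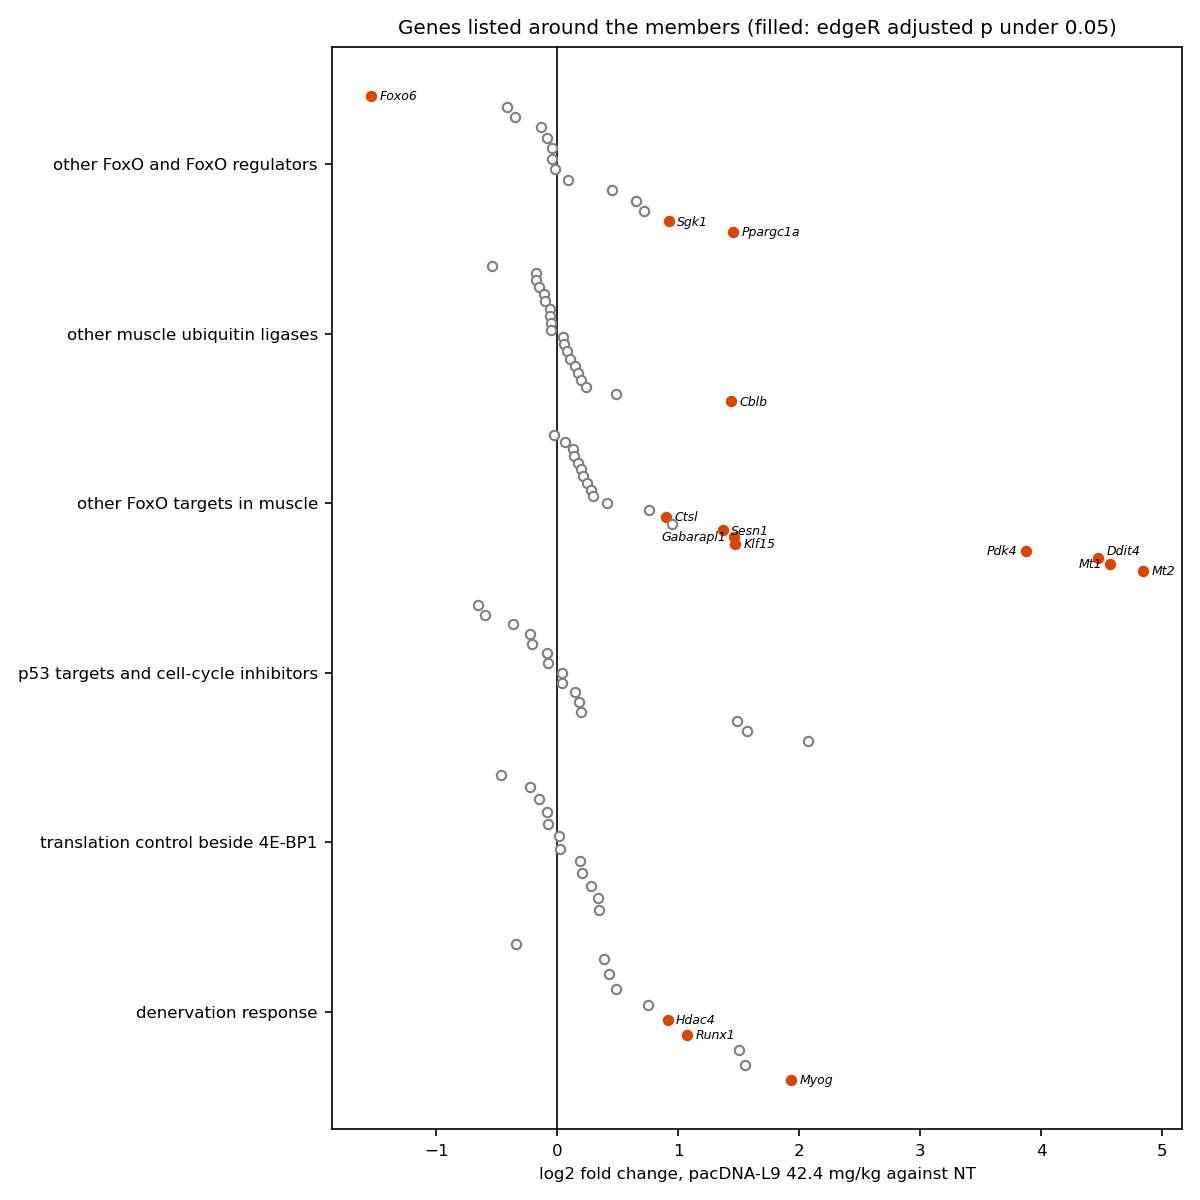
Log2 fold change at pacDNA-L9 42.4 mg/kg against NT for each tested gene of 6 lists around the 9 genes (points, spread vertically by value within a list); filled points passed an edgeR adjusted p of 0.05 and are named. The list of other FoxO targets has 8 filled points, all above 0. The list of p53 targets and cell-cycle inhibitors and that of translation control have none.

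The other lists, chosen with the same knowledge, are read against the same 3.14% of all genes. Of 14 other FoxO factors and regulators 2 were higher and 1 lower: Ppargc1a, the coactivator of mitochondrial genes (1.45 ± 0.26, SE, edgeR adjusted p = 9.1e-04), the kinase Sgk1 (0.92 ± 0.24, SE, edgeR adjusted p = 0.031) and Foxo6 (-1.54 ± 0.39, SE, edgeR adjusted p = 0.023). Of 20 other muscle ubiquitin ligases 1 was higher, Cblb, which acts on IRS1, from 15.0 to 19.9 CPM in NT to 34.7 to 53.9 CPM (1.44 ± 0.15, SE, edgeR adjusted p = 2.0e-06). The 19 that did not pass include Fbxo40, Trim54, Nedd4 and the SCF parts Cul1, Skp1 and Rbx1, and the median of the 20 was 0.00. Of 15 p53 targets and cell-cycle inhibitors and 12 tested genes of translation control none passed, with medians of 0.04 and 0.02. The values farthest from 0 were 2.07 for Gdf15 (edgeR adjusted p = 0.23) and 1.57 for Gadd45g (edgeR adjusted p = 0.093) in the former, and -0.47 for Eif4e (edgeR adjusted p = 0.083) and 0.35 for Mtor (edgeR adjusted p = 0.46) in the latter. Of 10 genes of the denervation response, with a median of 0.83, 3 were higher: Myog (1.94 ± 0.50, SE, edgeR adjusted p = 0.028), Runx1 (1.07 ± 0.26, SE, edgeR adjusted p = 0.016) and Hdac4 (0.91 ± 0.24, SE, edgeR adjusted p = 0.028). Without mouse B none of the denervation genes and none of the FoxO regulators passed, while Cblb did. With the running-number names as a term Ppargc1a, Cblb and Hdac4 kept their calls, Sgk1, Foxo6, Myog and Runx1 lost theirs, and Mstn and Musk passed.

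In NT against WT none of the listed FoxO targets, FoxO regulators and ligases passed, where 5.31% of all genes did. Of the 15 p53 targets and cell-cycle inhibitors 3 were higher in NT: Eda2r (3.27 ± 0.27, SE, edgeR adjusted p = 5.2e-09), Phlda3 (1.92 ± 0.34, SE, edgeR adjusted p = 5.8e-04) and Gadd45b (1.495 ± 0.41, SE, edgeR adjusted p = 0.029). Eda2r stood at 6.45 to 11.4 CPM in WT and 40.4 to 128 CPM in NT. Of translation control Eif4e was higher (0.58), and of the denervation response Runx1 (1.61) and Ncam1 (1.26). Among the cell type markers reported here, the fibre markers Myh1 (1.29) and Mb (1.36) and the macrophage marker Cd68 (1.54) were higher in NT. Their part in these results was not tested. At 42.4 mg/kg against NT the log2 fold change of Eda2r was near 0 (0.20 ± 0.27, SE, edgeR adjusted p = 0.88).

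Markers of other cells moved with the highest dose. Of 6 macrophage markers 4 were higher at 42.4 mg/kg against NT: Lyz2 (2.53 ± 0.26, SE, edgeR adjusted p = 1.8e-06), Cd68 (2.07 ± 0.30, SE, edgeR adjusted p = 1.0e-04), C1qa (1.32) and Csf1r (0.97). Their summed level was 207.9 to 303.8 CPM at 42.4 mg/kg and 53.1 to 99.1 CPM in NT. It was 114.5 to 157 CPM at 5.3 mg/kg, 101 to 237 CPM at 21.2 mg/kg, 161 to 169.9 CPM in Brush and 91.2 to 133 CPM with pacDNA-Scr, groups in which none of the 9 atrophy genes passed, and 51.3 to 77.3 CPM with free L9. Within 42.4 mg/kg the order of this sum was B, A, C, and none of the 6 markers was at 0 throughout a group. The macrophage marker C1qa lost its call without mouse B, where 3 of the 6 passed. With the running-number names as a term C1qa lost it too, and Adgre1 passed. The part of these cells in the atrophy result was not tested. None of the fibre, adipocyte, fibroblast, endothelial, satellite cell and tendon markers passed, although the adipocyte median was -1.93, and the T cell markers were too low to test. The blood marker Hba-a2 passed on counts of 1 to 57 in the 3 treated libraries, in a gene at 91.5 CPM or more in each library of the second set and at 2.21 CPM or less in each of the first.

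**Figure D5:**
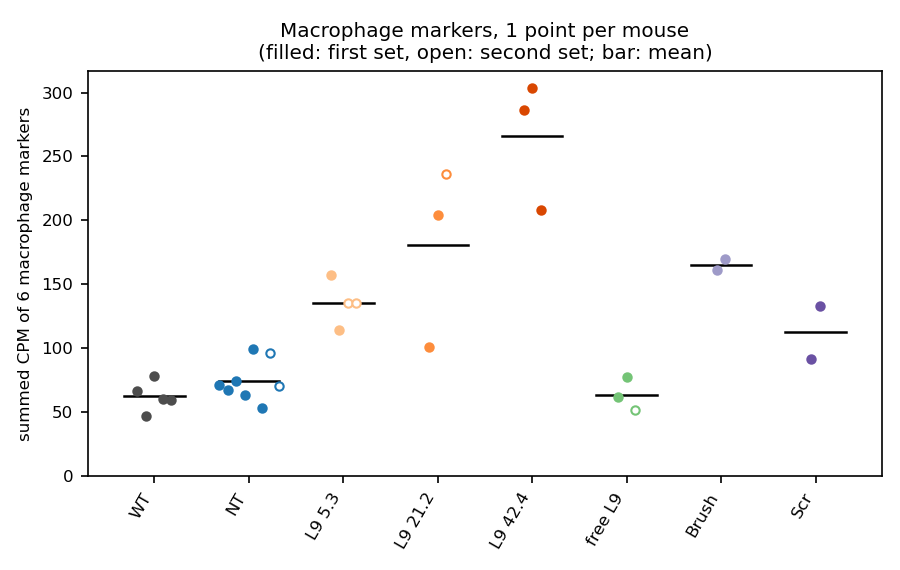
Summed CPM of 6 macrophage markers in each mouse, with filled points for the first set, open points for the second set and a bar at the group mean; L9 stands for pacDNA-L9 with its dose in mg/kg and Scr for pacDNA-Scr. The 3 mice at 42.4 mg/kg lie between 207.9 and 303.8 CPM, above all 8 NT mice, and free L9 lies at the NT level.

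Across the 24 libraries of the first set, the genes whose log2 CPM followed each member most closely were sought among 9351 genes with at least 5 CPM on average, as a description over libraries that share batch and treatment. Trim63 was followed by Tcp11l2 (Pearson r 0.96), Gabarapl1 (0.93) and Emd (0.92), and Cdkn1a by Trim63 (0.86), Tcp11l2 (0.86) and Hacd3 (0.85). Foxo1 was followed by Lrrc58 (0.92), Cblb (0.90) and Mt1 (0.90), and Foxo3 by Tns3 (0.92), Rnf144b (0.91) and Cnksr3 (0.90). The nearest to Gadd45a were Gabarapl1 (0.88), the myogenic factor Myf6 (0.88) and 1700017B05Rik (0.86). Fbxo32 had Dnajb6 (0.87), Klhl38 (0.85) and Clcc1 (0.85), and Fbxo30 had Clpx, Ampd3 and Slc43a1 (0.79, 0.78 and 0.78). Fbxo31 had Zfp740 (0.92), Zfp839 (0.92) and Paip2b (0.92), and Eif4ebp1 had Tfcp2l1 (0.84), Spns2 (0.83) and Cyp27a1 (0.79).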

How the data were processed

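RNA of 30 quadriceps was sequenced as paired-end reads of poly(A) libraries. The authors deposited raw counts per gene in a single table. The submitters' processing notes name HISAT2 2.0.5, DESeq2 and GRCm39 (mm39), and the strand setting of the counting was not given in the sources used here. The column of 1 WT library could be matched to its group only. Genes were named with GENCODE vM39 (56017 of 56748 matched).

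Counts were tested with edgeR 4.0.16 (R 4.3.3; filterByExpr, TMM, robust quasi-likelihood F-test) in 1 model of 8 groups and the deposited set. P-values were adjusted by Benjamini-Hochberg over all genes, with a threshold of 0.05. The SE is the log2 fold change divided by the root of F. HSA-LR20b and FVB/N mice were bought from a commercial breeder, and whether mice of a group shared a cage, litter or injection day is not given in the sources used here, so p-values measure the spread between these mice. DESeq2 1.42.0, other scalings, covariates, filters and sets of libraries were tried as alternatives, and the model was tested on simulated data. Letters were used as a block for pacDNA-L9 and free L9 at 5.3 mg/kg, where deviations from the group means correlated at 0.41 or more in each of 3 pairs. In both groups A and B are in the first set and C in the second, so these letters follow the set, whose part in the correlation was not tested.

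Members and lists were chosen with earlier results of these data known. Named were all 9 members; from each list up to the 4 largest changes past the threshold in NT against WT or 42.4 mg/kg against NT, or else the 2 largest; and the 3 nearest genes by Pearson r. Other names were added after their values were seen. Results of 1 marker list are not reported here.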

Additional observations from a re-analysis of the deposited data

Results flagged for a closer look

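In WT, mouse 1 had 52.57 CPM of Fbxo32 where the other 4 WT mice had 258 to 313.8 CPM. The gap to the nearest mouse was 0.787 of the whole range of the group, above the 95% limit of 0.71 for 5 samples. This was 1 of 27 groups examined over the 9 genes, and chance alone marks about 1 in 20 such groups. The same mouse also had the lowest Trim63 (130 CPM) and Fbxo31 (157 CPM) of its group. It was the only male WT mouse, and its summed markers of fibroblasts (3261 CPM, the other WT mice 677.5 to 1205), tendon (52.8 CPM, the others 13.9 to 25.02) and satellite cells (4.504 CPM, the others 0.843 to 1.45) were the highest in WT. Their part in the Fbxo32 value was not tested.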

How the results depend on the processing

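At 42.4 mg/kg against NT, 3 to 7 of the 9 genes passed when each mouse was left out in turn, with 3 only without mouse B at that dose. Against WT it was 6 to 7. The comparisons of doses were less stable. Against 21.2 mg/kg the main count of 5 became 3 without the set as a term, 1 with the running-number names as a term and 2 without the filter on low counts, and it was 1 to 6 when a mouse was left out (1 without 42.4 mg/kg B or 21.2 mg/kg A, 2 without 21.2 mg/kg B). All genes called moved as well, from 112 to 82, 13 and 92 in these alternatives, and to 15, 17 and 21 without those mice. Against 5.3 mg/kg the main count of 6 became 2 in the first set only, 2 with the running-number names as a term, 3 without the filter and 2 when the 5 libraries at 0 for the mitochondrial genes were left out, and it was 1 to 7 when a mouse was left out (1 without 42.4 mg/kg B or 5.3 mg/kg A, 3 without 5.3 mg/kg B). There all genes called moved from 209 to 86, 68, 165 and 88, and to 25, 47 and 108 without those mice. The causes were not tested. In NT against WT, Fbxo32 ran from -0.16 (without WT 1) to 0.21 (without WT 2), with -0.07 without NT 6, and Gadd45a from -0.023 (without NT 4) to 0.23 (without NT 2). Single numbers did not pair WT and NT (lowest correlation 0.013) or pacDNA-L9 and pacDNA-Scr at 5.3 mg/kg (0.0022). With a replicate block 1 gene passed in NT against WT, Cdkn1a at 1.22 (edgeR adjusted p = 0.023), and in the same 8 mice without the block it was 1.19 (edgeR adjusted p = 0.033). The call thus came with the choice of mice and not with the block, which changed no call of the 9 genes in the other comparisons. Of 1036 further values of the 9 genes under alternatives, none passed the threshold and 139 changed sign, all in comparisons where no member passed. Most treated groups hold 2 or 3 mice, which limits the precision.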
